A study of Mus musculus with 12 samples.

Results

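Proteins of the mitochondrial ribosome (mitoribosome) were followed in mouse liver with Mettl5 (wild type, WT) and without it (knockout, KO). The genes were chosen by symbol alone, as those starting with Mrpl or Mrps followed by a digit in the deposited table of ribosome profiling values. This gave 75 of the 10607 genes of that table, 47 with large subunit symbols (Mrpl) and 28 with small subunit symbols (Mrps). No measured value entered this rule, although it was set with earlier results of these data known. The table itself holds only genes with at least 1 read in every library. All 75 passed the filters on low values. Mrpl23, Mrpl53 and Mrps36 are in the file of input counts, where no library had more than 9 counts for any of them, and not in the table. Structures place Mrps30 and Mrps18a in the large subunit despite their symbols.

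The mitoribosome sits in the mitochondrial matrix and makes the proteins encoded by mitochondrial DNA, which are membrane subunits of the respiratory chain and of ATP synthase. Its rRNAs come from mitochondrial DNA, while its proteins are encoded in the nucleus, made by cytosolic ribosomes and imported. Many of them have relatives in bacterial ribosomes and others are found only in mitochondria. The footprints measured on these genes are therefore those of cytosolic ribosomes on the messages for mitoribosomal proteins. METTL5 places N6-methyladenosine on the 18S rRNA of cytosolic ribosomes, and the comparison asks whether its loss changed the abundance of these messages or their occupancy by ribosomes.

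Livers came from 3 WT and 3 KO mice in 3 litters with 1 mouse of each genotype, and each liver gave 1 input library and 1 library of ribosome-protected fragments (RPF), so that 12 libraries formed 4 groups. The KO line carried a floxed exon of Mettl5, the second, made with Cas9 in stem cells of a C57bl/6 x 129S6 hybrid and later backcrossed to B6. The exon was removed in the whole body by a cross with B6.C-Tg(CMV-cre)1Cgn/J, in which a CMV promoter drives Cre. The sources used here do not say whether the WT littermates carried Cre or the floxed allele. All groups shared lysis of frozen liver with cycloheximide, and the RPF samples were digested with MNase before monosomes were collected. Mice of both sexes and a range of ages were used in the study, and sex and age are not given for these 6 mice.

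Input is RNA-seq of the lysate and measures message abundance, and translation efficiency (TE) is RPF divided by input of the same mouse. Values are normalized reads, meaning reads divided by a single factor per library with no correction for gene length, so genes are compared with each other only per length. The 6 input columns held 2398804 to 5121304 reads and the 6 RPF columns 4623826 to 9184242. Mettl5 itself had 67, 56 and 103 RPF reads in the WT mice and 12, 9 and 10 in the KO mice (log2 difference −2.64, SE 0.36, limma adjusted p = 0.00504), the direction the labels give. Its input differed by −1.59 (SE 0.46, edgeR adjusted p = 0.999) and its TE by −1.16 (SE 0.51, limma adjusted p = 0.998). Neither passed, so a gene short of the threshold in input or TE is not thereby shown to be unchanged. All 8 hepatocyte markers looked at were detected. The 6 stellate cell markers were all detected too, with a summed input of 62.9 to 75.2 CPM in WT and 67.8 to 157 in KO. In RPF, 4 of the 5 tested were higher at an unadjusted limma p under 0.05, beside 5.40% of all genes tested. For input, 3 of 5 were higher at an unadjusted edgeR p under 0.05, beside 3.46% of all genes in either direction. With adjusted p, 0 passed in either assay. The highest KO library was above the highest WT library in summed input for all 7 marker lists. For hepatocytes the summed input was 21916 to 26286 CPM in WT and 18620 to 38822 in KO. The table held 5121304 reads of 1.18e+07 counted pairs in input of KO mouse 1, and 2398804 of 9.15e+06 in its WT littermate. The part of such totals in the CPM ranges was not tested, so these ranges, stellate cells included, do not show cell content. Median log2 differences of normalized input in litters 1, 2 and 3 were −0.25, −0.19 and 0.11 for hepatocyte markers. For stellate cell markers they were 0.24, 0.26 and 0.38. The log2 difference between KO and WT was below 0 for 5 of 5 erythroid markers in input (median −0.36) and 3 of 3 tested in RPF (median −0.86). Over all genes tested it was below 0 for 5029 of 10057 in input and 4853 of 8994 in RPF. Litters differed in sign, with erythroid medians in litters 1, 2 and 3 of 0.62, −1.02 and −0.87 in input and 0.69, −1.37 and −1.91 in RPF. Of these markers 0 passed in edgeR (input) or limma (RPF). The part of these cell types in the values of the mitoribosomal genes was not tested, and in whole liver fewer cells of a type and less RNA per cell cannot be told apart.

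The 75 genes are short. Their coding sequences had a median of 600 bases (range 195 to 1326), compared with 1452 bases over all genes tested, and their median GC content of 53.3% was near the 52.6% of all genes tested. The coding sequence opened with ATG in all 75, and 49 of them (65.3%) had both a purine at the position 3 bases before the ATG and a G just after it. For 26 of the 75 (34.7%) a protein-coding gene on the other strand started within 1000 bases upstream or in an overlap of the starts, compared with 15.2% of 8927 genes tested in RPF. These neighbours included a pair of mitoribosomal genes, Mrpl46 and Mrps11. Mrpl36 faced the complex I gene Ndufs6, Mrps12 faced Sars2, the mitochondrial seryl-tRNA synthetase, Mrpl49 faced Fau, and Mrpl51 faced Ncapd2.

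Promoter sequences (250 bases before to 50 after the annotated start, RefSeq, GRCm38.p6) were at hand for 66 of the 75 genes, and the first listed for each gene was read on both strands. The ETS motif CCGGAAG was found in 36.4% of the 66, compared with 20.0% of 7227 tested genes and 9.12% of all 27025 genes with a promoter. The YY1 motif AAGATGG was in 19.7%, compared with 7.90% and 6.48%, and the NRF1 core CGCATGCG in 10.6%, compared with 4.34% and 1.91%. At least 1 of the 3 was present in 36 of the 66 promoters (54.5%, compared with 29.1% of tested genes). Among 32 cytosolic ribosomal protein genes the shares were 40.6% for ETS, 18.75% for YY1, 3.1% for NRF1 and 56.25% for at least 1. The ETS and YY1 shares were thus not particular to mitoribosomal genes. The ETS and YY1 motifs shared bases in 0 of the 66. The GC box GGGCGG was in 48.5%, compared with 65.8% of tested genes, and TATAAA in 6.06%, compared with 7.10%. ETS factors and NRF1 are known as regulators of nuclear genes for mitochondrial proteins, but a match of letters is a description and no binding was measured. A start of C followed by 4 pyrimidines marks the TOP element of cytosolic ribosomal protein messages. It stood at the annotated start of 0 of the 66 genes, beside 2.19% of the 7227 tested genes. Of 32 cytosolic ribosomal protein genes, 5 (15.6%) had it. Since this check found it in few of the genes known for it, a count of 0 does not show its absence.

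Promoters of 3 genes are shown because each holds another combination of the ETS, NRF1 and YY1 motifs, which are in capitals (all 3 also hold the GC box, left in lower case): Mrpl51 (chr6:125191950-125192249, + strand) an ETS motif, Mrpl17 (chr7:105811038-105811337, − strand) ETS and NRF1, and Mrps12 (chr7:28741772-28742071, − strand) ETS and, read on the other strand, YY1.
Mrpl51 promoter: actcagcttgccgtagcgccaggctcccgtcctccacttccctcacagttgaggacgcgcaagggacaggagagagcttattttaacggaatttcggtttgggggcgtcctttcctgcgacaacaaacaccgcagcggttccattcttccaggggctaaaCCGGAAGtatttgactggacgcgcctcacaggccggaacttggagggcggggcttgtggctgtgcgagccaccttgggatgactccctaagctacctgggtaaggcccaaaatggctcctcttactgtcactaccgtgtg
Mrpl17 promoter: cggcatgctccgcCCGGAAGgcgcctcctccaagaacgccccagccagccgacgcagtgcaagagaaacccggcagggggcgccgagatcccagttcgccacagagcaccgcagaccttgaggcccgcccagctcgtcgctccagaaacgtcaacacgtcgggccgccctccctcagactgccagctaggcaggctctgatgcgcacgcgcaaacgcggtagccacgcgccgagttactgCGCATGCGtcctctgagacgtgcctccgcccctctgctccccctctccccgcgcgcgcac
Mrps12 promoter: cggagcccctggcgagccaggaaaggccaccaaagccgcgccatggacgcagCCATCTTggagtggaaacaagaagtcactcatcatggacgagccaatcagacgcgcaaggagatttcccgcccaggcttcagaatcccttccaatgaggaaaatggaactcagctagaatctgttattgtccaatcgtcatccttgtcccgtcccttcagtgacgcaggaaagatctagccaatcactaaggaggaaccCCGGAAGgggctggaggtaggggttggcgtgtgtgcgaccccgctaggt

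In WT liver the footprint level of these genes spanned more than an order of magnitude. RPF per kilobase of coding sequence had a median of 173 normalized reads (quartiles 105 and 281), and the highest gene was 22.7-fold above the lowest. At the top were Mrps17 at 784 ± 137 (SD, n = 3), Mrps14 of the small subunit head at 757 ± 85.8, the small protein Mrpl33 at 709 ± 117 and the rRNA-binding Mrpl13 at 672 ± 162. The ranges of these 4 genes over the 3 mice overlapped, so their order was not resolved. At the bottom were Mrpl19 at 34.6 ± 2.34, Mrpl27, which lies near the peptidyl transferase centre, at 37.9 ± 7.92, Mrps6 at 39.5 ± 3.12 and Mrpl48 of the central protuberance at 44.6 ± 11. The ranges of these low genes overlapped one another as well.

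**Figure D1:**
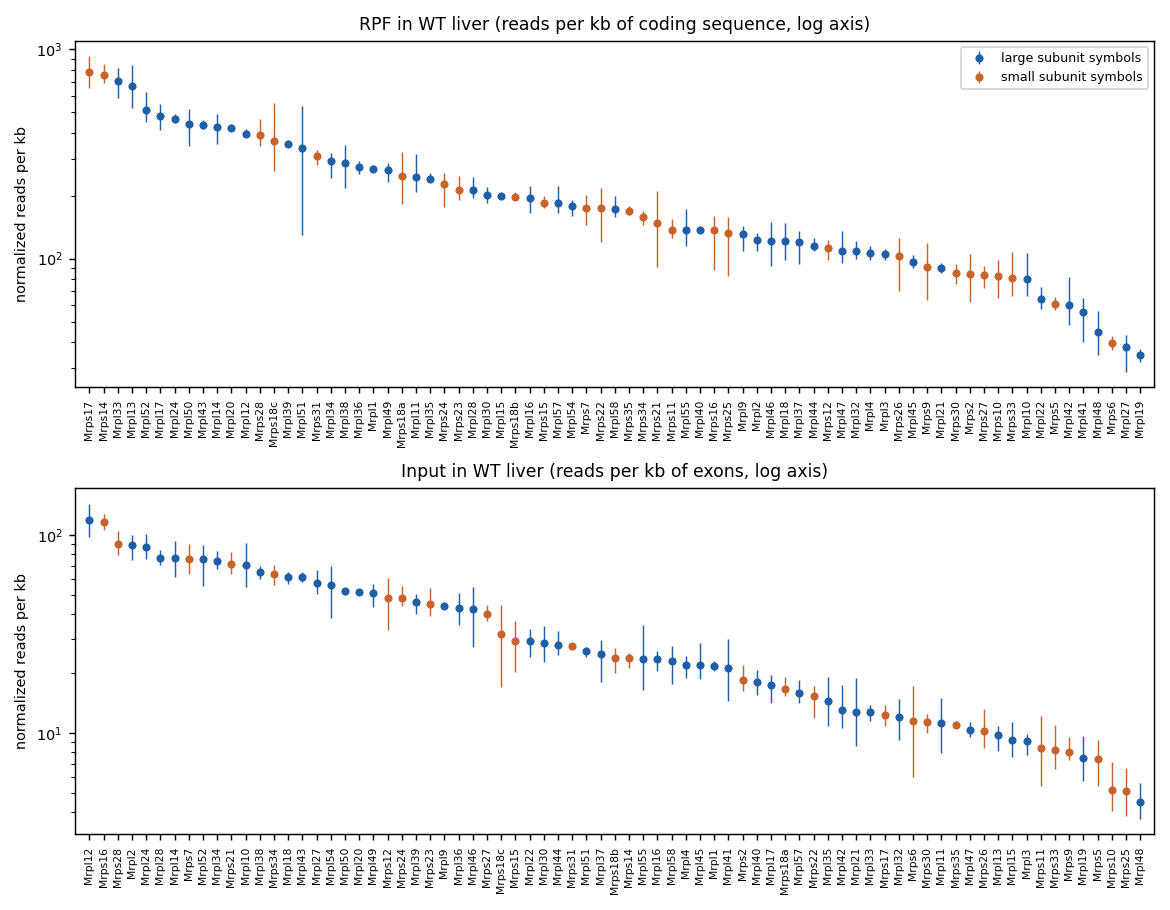
WT levels of the 75 genes on log axes, with RPF per kilobase of coding sequence and input per kilobase of exons (normalized reads). Points are means of 3 mice, bars run from the lowest to the highest mouse and colours give the subunit of the symbol; RPF runs from 784 for Mrps17 to 34.6 for Mrpl19.

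Message levels gave another order. Input per kilobase of exons was highest for Mrpl12 of the L7/L12 stalk, which recruits translation factors, at 119 ± 23.4 (SD, n = 3), followed by Mrps16 at 117 ± 10.6, Mrps28 at 90.3 ± 12.5 and Mrpl2, a core protein of the peptidyl transferase region, at 88.6 ± 12.5. Lowest were Mrpl48 at 4.52 ± 0.995, Mrps25 at 5.10 ± 1.47, Mrps10 at 5.18 ± 1.73 and Mrps5 at 7.40 ± 1.92. Mrps12 of the decoding centre had 48.3 ± 13.9. The length is that of all annotated exons joined, 8152 bases for Mrpl48 and 783 for Mrps28, so this order depends on the annotation.

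TE per length, the ratio of both levels, had a WT median of 7.14 and ran from 0.686 ± 0.221 (SD, n = 3) for Mrpl27 to 69.8 ± 18.4 for Mrpl13. Below Mrpl13 stood Mrps17 (63.8 ± 9.16), Mrpl33 (55.7 ± 9.55) and Mrps14 (31.9 ± 4.2), the same 4 genes that led RPF per kilobase. Above Mrpl27 stood Mrps16 (1.19 ± 0.438), Mrpl10, which holds Mrpl12 in the stalk (1.19 ± 0.449), and Mrpl2 (1.41 ± 0.301). Mrps16 and Mrpl2 were among the highest in message and the lowest in TE. Since TE is RPF divided by input, genes picked for high input tend towards low TE, and the leaders in RPF towards high TE. Both overlaps are therefore a description only. The order by TE per length rests on different lengths for RPF and input. With both per kilobase of exons the median was 1.71, Mrps11 was highest (4.82), Mrpl13 had 4.69, Mrps14 3.76, Mrps17 3.54 and Mrpl33 1.48, below the median, and Mrps16 was lowest (0.168).

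Levels of both subunits lay close together. In the 3 WT mice the median RPF per kilobase was 165, 185 and 182 over large subunit genes and 157, 159 and 159 over small subunit genes. Median TE per length was 6.12, 6.38 and 5.75 for the large and 7.0, 7.96 and 9.39 for the small subunit in WT, and 7.15, 5.89 and 5.51 and 8.78, 7.54 and 6.51 in KO. The small subunit had the higher median in each mouse on this scale, within quartiles across genes of 4.07 and 9.87 for the large and 4.34 and 12.8 for the small subunit in WT, but the order depended on the length used. With both measures per kilobase of exons the medians of large and small subunit genes were 1.69, 1.57 and 1.63 and 1.66, 1.84 and 1.74 in WT and 1.86, 1.75 and 1.70 and 1.73, 1.78 and 1.65 in KO, and the small subunit was the lower in WT mouse 1 and KO mice 1 and 3. With input per kilobase of the longest-CDS transcript it was the lower in WT mice 1 and 2 and KO mouse 3. For comparison, 42 cytosolic ribosomal protein genes had WT medians of 0.716, 0.816 and 0.587 in TE per length, and 36 complex I genes had 5.66, 5.09 and 5.61. Reads with several mapping places were dropped upstream, and cytosolic ribosomal proteins have many processed copies, whose part in that difference was not tested.

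Together the 75 genes took a small share of the reads. In input they held 0.126%, 0.142% and 0.147% of the table's reads in WT and 0.148%, 0.143% and 0.149% in KO. In RPF they held 0.183%, 0.190% and 0.214% in WT and 0.196%, 0.221% and 0.222% in KO. The ranges of the groups overlapped in both assays, while within litters the KO share was the higher in 3 of 3 in both, by little in litter 2 of input and litter 3 of RPF, and this was not tested. The ratio of large to small subunit reads in RPF was 1.83, 1.79 and 1.80 in WT and 1.85, 1.84 and 2.00 in KO. Every KO mouse was above every WT mouse by this ratio, but without the reads of Mrpl51, left out after its values were seen, it was 1.82, 1.75 and 1.74 in WT and 1.78, 1.73 and 1.85 in KO, and the groups overlapped. In input the ratio was 1.73, 1.84 and 1.87 in WT and 1.79, 1.82 and 1.43 in KO, and in the last of these libraries Mrps16 gave 531 of the 1674 small subunit reads.

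No mitoribosomal gene passed the test of message abundance between KO and WT. With edgeR's quasi-likelihood test, 0 of the 75 had an adjusted p under 0.05, as did 0 of all 10057 genes tested (0%), and DESeq2 also gave 0 of the 75. At an unadjusted p under 0.05 there was 1 of 75 (1.33%), beside 3.46% of all genes. KO and WT ranges did not overlap for 5 of the 75 (6.67%), beside 9.25% of all genes. The median log2 difference was −0.01 (quartiles −0.18 and 0.14), with 37 genes above 0 and 38 below, and over all genes tested it was 0.00.

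Mrps5, a small subunit protein with a bacterial relative, had the smallest p in input. Its input was 60.5, 50.2 and 35.4 in WT and 69.1, 66.5 and 72.0 in KO. Every KO mouse was above every WT mouse (log2 difference 0.55, SE 0.25, edgeR adjusted p = 0.999). Mrps9 (0.50, SE 0.25), Mrpl41 (0.77, SE 0.39) and Mrps34 (0.31, SE 0.17) followed on the higher side, and Mrpl39 (−0.33, SE 0.20), Mrps6 (−0.74, SE 0.49), Mrpl22 of the peptide exit tunnel (−0.50, SE 0.34) and Mrps23 (−0.33, SE 0.23) on the lower side, none of which passed in edgeR. Mrpl41 and Mrps6 rest on 5 to 40 reads per library.

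Mrps16 had the widest spread of the 75 genes in input. Its input was 365, 337 and 304 in WT and 195, 209 and 849 in KO. The KO mouse of litter 3 stood far above the other 5 mice, and both other KO mice were below every WT mouse. The log2 difference was 0.31, SE 0.70 with all mice and −0.70 without that mouse, and neither passed in edgeR. Its RPF was 35.7, 64.8 and 65.0 in WT and 67.4, 60.2 and 50.7 in KO, with no high value in that mouse.

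In RPF, 0 of the 75 genes had an adjusted p under 0.05 in limma, beside 44 of 8994 genes tested (0.489%), and edgeR on whole reads also called 0 of the 75. At an unadjusted p under 0.05 there were 11 of 75 (14.7%), near the 13.4% of all genes. Of these, 5 were higher in KO (6.67%, beside 5.40%) and 6 lower (8.0%, beside 7.99%), so by this p both directions were near the background. Ranges of the KO and WT mice did not overlap for 8 genes that were higher (10.7%, beside 6.97%) and 17 that were lower (22.7%, beside 12.9%). By this measure both shares were above those of all genes. The median within-genotype SD of log2 RPF was 0.205 over the 75 and 0.255 over all genes tested. Its part in these counts was not tested. The median log2 difference was −0.01 over the 75 (quartiles −0.28 and 0.19), compared with −0.03 over all genes tested.

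**Figure D2:**
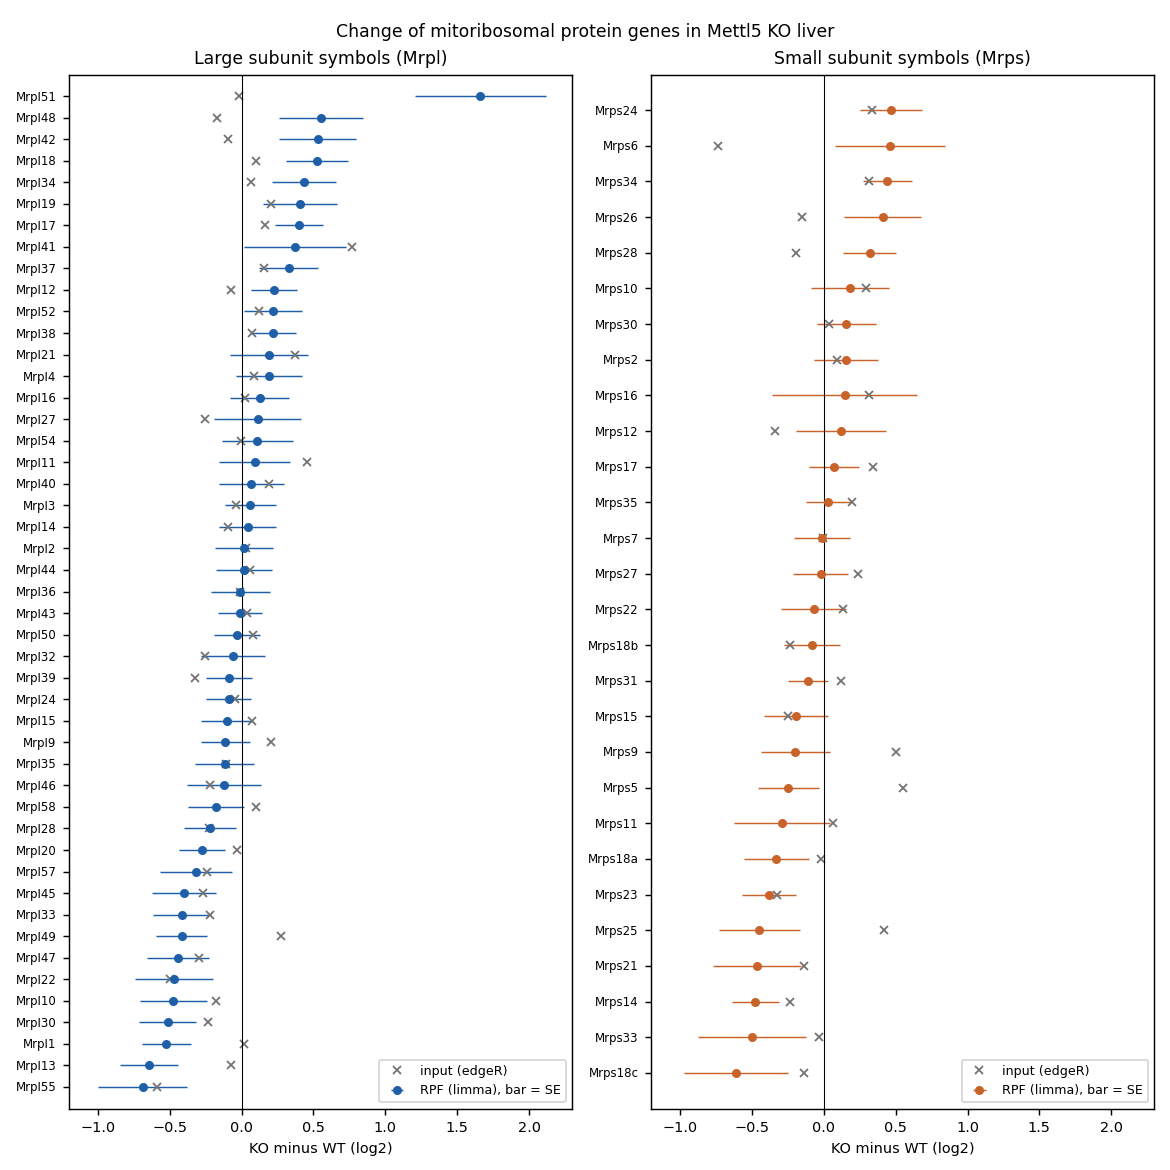
KO minus WT difference of each gene on the log2 scale, for RPF (points, limma, bars are standard errors) and input (crosses, edgeR), with large and small subunit symbols in separate panels. The RPF point of Mrpl51 stands at 1.66 and its input cross at −0.02, and the other RPF points lie between −0.69 and 0.55.

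Mrpl51 had the largest RPF difference of the 75. It encodes a large subunit protein found only in mitochondria (chr6:125191801-125196269, + strand, mm10), with a coding sequence of 384 bases. Its RPF was 49.7, 133 and 205 in WT and 231, 378 and 503 in KO, from 57, 156 and 398 reads and 333, 615 and 526 reads. Every KO mouse was above every WT mouse, with the highest WT mouse close to the lowest KO mouse. Within litters 1, 2 and 3 the difference was 2.20, 1.5 and 1.29 on the log2 scale, and the fitted difference was 1.66 (SE 0.46, 3.16-fold, limma adjusted p = 0.150). That fit shares 1 estimate of the spread between input and RPF, where the within-genotype SD of this gene was 0.18 and 0.84. Mrpl51 had an SE of 0.61 and a limma adjusted p of 0.354 with the RPF columns fitted alone and no block. Its input was 108, 109.7 and 98.3 in WT and 93.4, 122 and 91.1 in KO, with overlapping groups (log2 −0.02, SE 0.19, edgeR adjusted p = 0.999).

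Since the labels give the same number to littermates, a fit with litter as a block was run beside the unpaired one, and among the 75 it called Mrpl51. With the block its RPF difference had an SE of 0.18 and a limma adjusted p of 5.70e-05, 1 of 75 genes beside 2.62% of all genes tested. With the trend on GC content removed as well, the adjusted p was 0.000516. The WT values of Mrpl51 differed 4.13-fold among themselves, and its within-genotype SD of 0.84 on the log2 scale was above that of 98.8% of genes tested. Leaving out single mice in the unpaired fit gave log2 differences of 1.09 (without WT mouse 1) to 2.10 (without WT mouse 3), with limma adjusted p of 0.0877 to 0.565. Duplicate footprint reads were not removed upstream, and the tables hold no positions within a gene. The microRNA gene Mir3098 lies in 2.15% of its exon bases on the same strand.

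The first coding exon of Mrpl51 is shown, with its start codon in capitals (chr6:125192355-125192433, GRCm38.p6, + strand), because this message carried the RPF difference that passed with the litter block. The base at the position 3 before the ATG, outside the stretch shown, is a G, and the base after the ATG is a G too.
Mrpl51 first coding exon: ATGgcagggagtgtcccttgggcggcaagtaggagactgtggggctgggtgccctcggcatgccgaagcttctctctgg

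**Figure D3:**
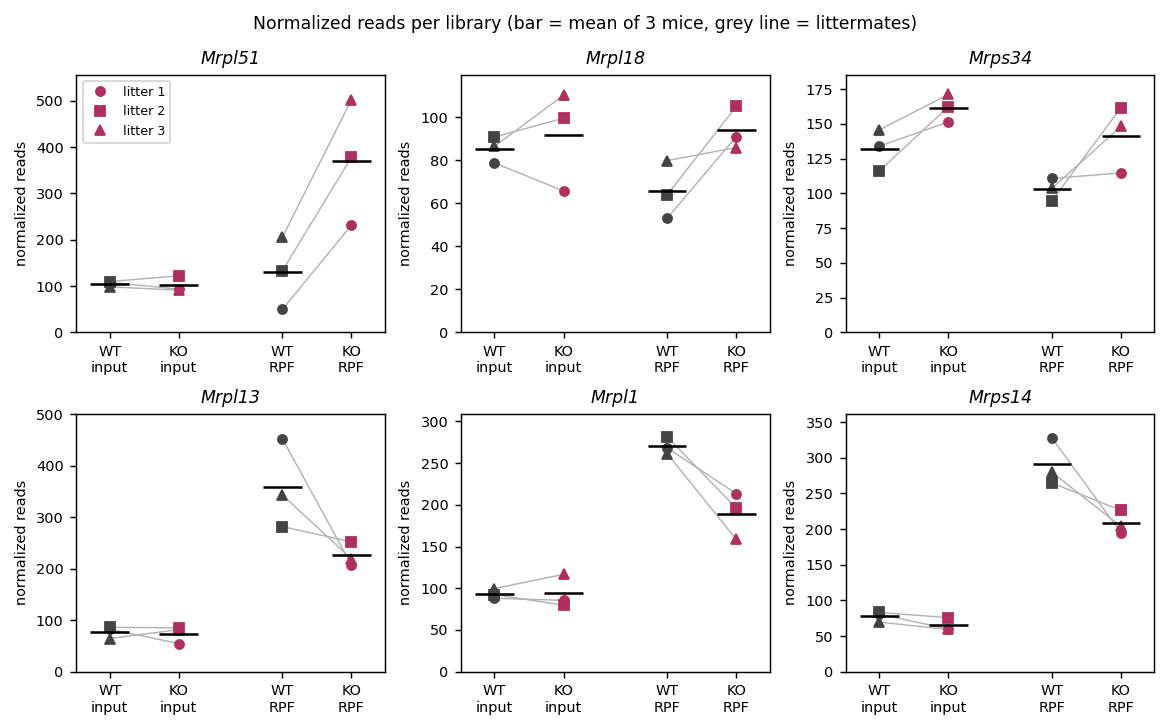
Normalized reads in each library for genes with higher and with lower RPF in KO (colour gives the genotype, marker shape the litter, grey lines join littermates, bars are means of 3 mice). RPF of Mrpl51 runs from 49.7 to 205 in the WT mice, and the KO mice lie between 231 and 503.

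The other genes higher in KO by unadjusted p differed by less. Mrpl18 of the central protuberance had RPF of 53.1, 64.0 and 79.9 in WT and 91.1, 105 and 86.0 in KO (log2 0.53, SE 0.21, limma adjusted p = 0.292). Mrps34, a mitochondria-specific protein of the small subunit, had 111, 94.7 and 104 in WT and 115, 162 and 148 in KO (0.44, SE 0.17, adjusted p = 0.255). Mrpl17, with a bacterial relative, had 288, 218 and 258 in WT and 318, 309 and 383 in KO (0.40, SE 0.17, adjusted p = 0.296). KO and WT did not overlap for any of the 3, although in litter 1 the KO mouse differed from its littermate by only 0.05 on the log2 scale for Mrps34. Mrps34 shares 37.0% of its exon bases with Nme3 on the same strand and its value is uncertain. Mrps24 (0.47, SE 0.22, adjusted p = 0.363) shares 15.4% with Urgcp on the same strand, and its groups overlapped.

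On the lower side, Mrpl13 (chr15:55534094-55557748, − strand) had RPF of 452, 282 and 343 in WT and 207, 252 and 219 in KO (log2 −0.64, SE 0.20, limma adjusted p = 0.156). Mrpl1 of the L1 stalk, where spent tRNA leaves (chr5:96209493-96266727, + strand), had 268, 282 and 261 in WT and 213, 196 and 159 in KO (−0.52, SE 0.17, adjusted p = 0.173). Mrps14 (chr1:160195215-160202170, + strand) had 328, 264 and 279.5 in WT and 195, 226 and 204 in KO (−0.48, SE 0.16, adjusted p = 0.199). All KO mice were below all WT mice for each of the 3, and Mrpl30 (−0.51, SE 0.20), Mrpl49 (−0.41, SE 0.18) and Mrpl55 (−0.69, SE 0.31) showed the same separation without passing in limma. With the RPF columns fitted alone and litter as a block, Mrpl13 (limma adjusted p = 0.0397) and Mrpl1 (0.0478) passed beside Mrpl51 (4.44e-05), 3 of 75 (4.0%) in a fit that called 353 of 8994 genes (3.92%).

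The genes with the highest and lowest WT level per kilobase were picked by the WT values that also enter the difference between KO and WT, so their directions are a description only. Beside Mrpl13 and Mrps14, the other leaders were Mrps17, which differed by 0.07 (SE 0.17) and Mrpl33, which differed by −0.41 (SE 0.20). At the low end Mrpl19 differed by 0.41 (SE 0.26), Mrpl48 by 0.55 (SE 0.29), Mrps6 by 0.46 (SE 0.38) and Mrpl27 by 0.11 (SE 0.30), all 4 above 0 and short of the limma threshold. Mrpl12 had RPF of 235, 229.5 and 252 in WT and 294, 243 and 304 in KO (log2 0.23, SE 0.16), and Mrps12 differed by 0.12 (SE 0.31). Mrpl39, a mitochondria-specific protein of the large subunit, had the smallest spread within genotypes of the 75, with 371, 352 and 349 in WT and 339, 333 and 337 in KO. Its groups did not overlap although the log2 difference was −0.09 (SE 0.16, limma adjusted p = 0.852).

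In TE, 0 of the 75 genes had an adjusted p under 0.05 in limma, as did 0 of 8994 genes (0%), and edgeR on whole reads called 0 as well. At an unadjusted p under 0.05 there were 5 of 75 (6.67%), beside 4.70% of all genes, and the groups did not overlap for 8 (10.7%), beside 13.4%. The median log2 difference was −0.03 over the 75 and −0.01 over all genes. For Mrpl51 the ratio of RPF to input was 0.459, 1.21 and 2.09 in WT and 2.48, 3.09 and 5.52 in KO, higher in every KO mouse (log2 1.72, SE 0.64, limma adjusted p = 0.998). With litter as a block it was the single gene of 8994 that passed in TE (0.0111%, limma adjusted p = 0.0198), and with mouse and litter as blocks its adjusted p was 0.00242.

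Since TE is the RPF difference minus the input difference, genes picked for lower TE tend towards higher input, lower RPF or both. Both parts are therefore given as a description only. Mrpl49 had ratios of 1.43, 1.42 and 1.31 in WT and 1.03, 0.732 and 0.866 in KO (log2 −0.67, SE 0.25), with an input difference of 0.28 and an RPF difference of −0.41. Mrps5 had 1.28, 1.46 and 2.39 in WT and 0.835, 1.10 and 0.943 in KO (−0.78, SE 0.30), with 0.55 in input and −0.25 in RPF. All KO ratios were below all WT ratios for both genes. Mrps25 (−0.87, SE 0.40) and Mrpl1 (−0.51, SE 0.24) were the other genes with a lower ratio at an unadjusted p under 0.05, and Mrps25 shares 69.8% of its exon bases with Nr2c2 on the opposite strand. Mrpl48 (0.83, SE 0.41), Mrps28 (0.52, SE 0.26) and Mrps6 (1.05, SE 0.54) had higher ratios that missed it. All of these had a limma adjusted p of 0.998. Mrps6 shares 19.9% of its exon bases with Gm49711 and 10.4% with Slc5a3 on the same strand.

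By subunit, the median RPF difference was −0.01 over 47 large and −0.05 over 28 small subunit genes. For input the medians were −0.01 and 0.05, and for TE 0.00 and −0.09. Litters differed in sign for the small subunit, whose median TE difference was 0.08, −0.19 and −0.23 in litters 1, 2 and 3 and whose median input difference was −0.16, 0.13 and 0.12. Large subunit genes had 0.04, −0.07 and −0.07 in TE. Counting Mrps30 (RPF 0.16, SE 0.21) and Mrps18a (RPF −0.33, SE 0.23) with the large subunit left the RPF medians at −0.01 and −0.05. The 47 genes with bacterial relatives had a median RPF difference of −0.06 (quartiles −0.31 and 0.15) and the 28 mitochondria-specific genes 0.00 (quartiles −0.14 and 0.25).

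**Figure D4:**
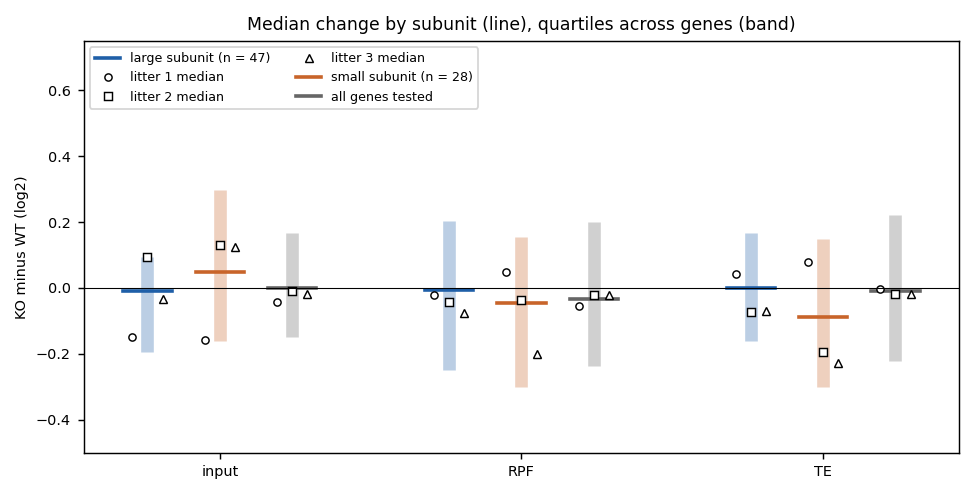
Median KO minus WT difference (log2) of large subunit genes, small subunit genes and all genes tested, in input, RPF and TE, with lines at the fitted medians, bands for the quartiles across genes and open markers for the median within each litter. The small subunit markers for TE run from −0.23 to 0.08.

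RPF differences went with the GC content of the coding sequence in these genes and in the whole table. The Spearman correlation was 0.33 across the 75 genes and 0.46 across 8985 genes tested, in both cases across genes that share the same libraries and are not independent replicates. Of the 10 genes with 44% to 48% GC, 1 was above 0, with a median of −0.11 compared with −0.18 over 1425 tested genes of that range. Of the 8 genes with at least 60% GC, 6 were above 0, with a median of 0.27, as over 875 tested genes. In input the correlation was 0.08 across the 75. With the trend removed from each column, the RPF difference of Mrpl1, which has the lowest GC content of the 75 (41.6%), was −0.26 in place of −0.52, and that of Mrps34 (63.8%) was 0.12 in place of 0.44. Mrpl51 (52.1%) had 1.68 and Mrpl13 (47.4%) −0.51 after this step.

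A stretch of coding exon is shown for Mrpl1 (chr5:96223771-96223860, + strand) and Mrps34 (chr17:24895168-24895257, + strand), genes from both ends of this range, as the first 90 bases of the longest coding exon in GRCm38.p6 with every G and C in capitals.
Mrpl1 coding exon: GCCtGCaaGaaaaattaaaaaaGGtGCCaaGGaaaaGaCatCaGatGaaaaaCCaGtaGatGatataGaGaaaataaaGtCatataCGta
Mrps34 coding exon: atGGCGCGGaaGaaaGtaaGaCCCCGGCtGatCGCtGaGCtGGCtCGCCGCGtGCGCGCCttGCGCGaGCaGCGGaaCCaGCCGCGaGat

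**Figure D5:**
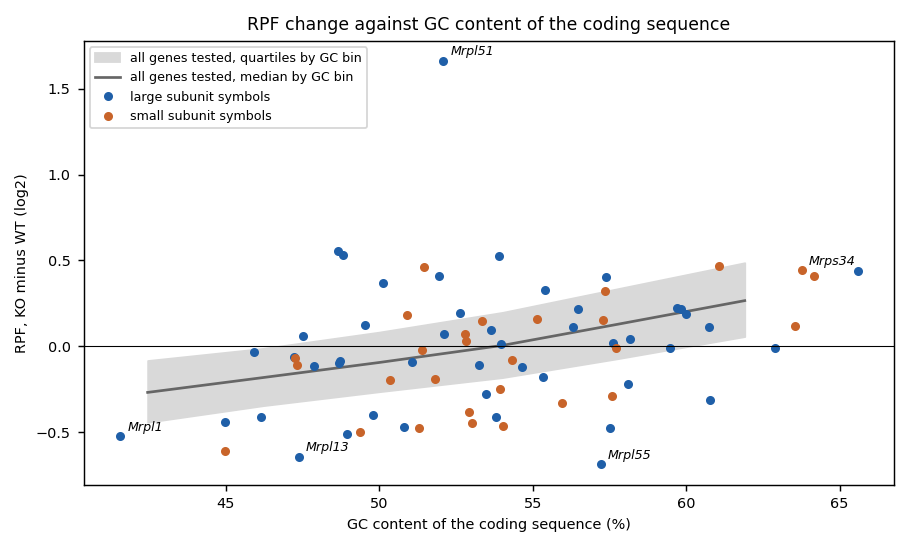
RPF difference (KO minus WT, log2) of the 75 genes against the GC content of their coding sequence (percent), with the median (line) and quartiles (band) of all tested genes in GC bins. The line runs from −0.27 to 0.27, and Mrpl51 lies far above it at 52.1% GC.

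Other genes of mitochondrial translation were looked at beside these. Of 5 mitoribosomal proteins with other symbols, 0 passed in edgeR (input) or limma (RPF and TE), and 1 had an unadjusted p under 0.05 in RPF (20.0%, beside 13.4% of all genes). This was Aurkaip1 of the small subunit (RPF 0.46, SE 0.18, limma adjusted p = 0.282), while Ptcd3 (−0.28, SE 0.21), the GTP-binding Dap3 (0.12, SE 0.18), Gadd45gip1 (−0.07, SE 0.35) and Chchd1 (−0.03, SE 0.24) had smaller differences. Of 16 mitochondrial translation factors 0 passed in limma in RPF, 2 had an unadjusted p under 0.05, and 2 were above 0 and 14 below, with a median of −0.13. These are 12.5% by p and 12.5% above 0, beside 13.4% and 46.0% of all genes tested, whose median was −0.03. The elongation factor Tsfm had 0.48, SE 0.21 (adjusted p = 0.323) and Slirp, which stabilises mitochondrial messages, −0.55, SE 0.26 (adjusted p = 0.372).

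Among 24 factors that assemble or modify the mitoribosome, 0 passed in limma in RPF, 1 had an unadjusted p under 0.05, and 10 were above 0 and 14 below (4.17% by p and 41.7% above 0, beside 13.4% and 46.0% of all genes tested). Mpv17l2, which takes part in building the mitoribosome, had the smallest p (0.81, SE 0.26, adjusted p = 0.166). The pseudouridine synthase Trub2 had 0.65, SE 0.36, Mterf3 −0.42, SE 0.26 and Ngrn −0.35, SE 0.22. Of 13 general mitochondrial genes 0 passed in RPF and 3 had an unadjusted p under 0.05 (23.1%, beside 13.4% of all genes), with the smallest p for the outer membrane channel Vdac2 (−0.52, SE 0.16, limma adjusted p = 0.140) and a median of 0.04.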

How the data were processed

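Liver input RNA and RPF were sequenced from 3 WT and 3 Mettl5 KO mice. Per the labels and methods, the authors trimmed input reads, aligned them to mm10 with STAR 2.7.3a and counted unique reads over exons with featureCounts (1.6.0 in the submitters' processing notes, 2.0.3 in the file header), so the deposited input file holds counts. RPF reads went through RiboToolkit, with rRNA reads removed, reads of a single location kept and duplicates not removed. The deposited table of input, RPF and TE holds normalized signal without gene length. Its values were whole multiples of 1 read in every library, within 0.001 reads. Its columns of the authors' own comparisons (log2 fold changes, p-values) were not used.

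Input counts were tested with edgeR 4.0.16 (quasi-likelihood, TMM, R 4.3.3). For RPF and TE, limma 3.58.1 was fitted to log2(value + 1) over all 12 libraries, keeping genes whose mean reached 10 in both assays, so fold changes of low genes are understated. TE is the interaction in that fit. P-values were adjusted by the Benjamini-Hochberg method over all genes tested, with 0.05 as the threshold. Steps were tested on simulated data with 200 changed genes. DESeq2 1.42.0, a litter block, removal of the trend on GC content and other settings were alternatives.

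Same-numbered mice were littermates per the labels. Deviations from group means correlated at 0.0816, 0.127 and 0.100 in input and 0.242, 0.144 and 0.195 in RPF within litters, and between −0.117 and 0.0169 and between −0.239 and 0.0813 across litters. The unpaired fit was kept because the methods state no block.

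The genes and lists were chosen with earlier results of these data known. Named were genes that passed in any comparison, the 4 higher and 4 lower genes with the smallest p in each of input, RPF and TE, the 4 highest and 4 lowest per length in WT, and Mrps30, Mrps18a, Mrpl12, Mrps12 and Mrps36 by role. Mrpl49, Mrpl55 and Mrps24 in RPF were named in addition after their values were seen. Lyrm7 was taken off a list after the data were seen.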

Additional observations from a re-analysis of the deposited data

How the results depend on the processing

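Of 1612 values recomputed for 111 results, 1572 stayed within the limits set for no change and 0 of the called values turned direction. Of 93 results on single genes, 29 had a difference that took the other sign under some setting, all of them short of the threshold, and 4 passed under some setting. The count of mitoribosomal genes called in RPF, 0 without pairing, was 1 with the replicate block of litter, 1 with the block and the GC trend removed (Mrpl51 both times) and 3 with the RPF columns alone and the block (Mrpl51, Mrpl13 and Mrpl1). In TE it was 1 (Mrpl51) with the block, with the block and the GC trend removed, and with blocks of mouse and litter. Apart from these calls of Mrpl51, Mrpl13 and Mrpl1, the litter block changed no call among the 75. The last fit in RPF and the fit with blocks of mouse and litter were chosen after seeing the data, as were limma on the input table and the longest-CDS length. The count stayed at 0 in every fit that left out 1 mouse.

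The median RPF difference of large subunit genes was −0.087 when genes had to reach a mean of 50 in both assays, and their median TE difference ran from −0.096 (without KO mouse 1) to 0.046 over the fits that left out 1 mouse. Median WT TE per length was 1.71 with both per kilobase of exons and 3.98 with input per kilobase of the longest-CDS transcript, and the corresponding medians were 44 for RPF and 51.5 for input.

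Over all genes, input gave 0 calls and 1 by DESeq2, 30 without a count filter, 2 with the block, 2 by limma on the table and 0 to 21 without 1 mouse. RPF gave 44 calls, 236 with the block, 11 with the GC trend removed, 23 with the RPF columns alone, 353 with those and the block, 66 by edgeR on whole reads, and 0 (without KO mouse 2) to 226 (without KO mouse 1). TE gave 0 calls, 1 with the block and 9 with blocks of mouse and litter. The cause of these differences was not tested. Input had a median of 34 to 87 reads per mitoribosomal gene and library and RPF 100 to 217, and the part of depth in the TE calls was not tested.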
